A study of Ovis aries with 6 samples.

Results

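Hedgehog signalling carries a message from the granulosa cells of a growing follicle to the cells around it. The 8 genes described here are the ligands IHH and DHH, the receptor PTCH1, the transducer SMO, the transcription factors GLI1, GLI2 and GLI3, and the membrane-bound ligand inhibitor HHIP. They were chosen by name as parts of this pathway, and 8 of 8 were found among the 30574 features of the count tables. Of these, 1 gene, HHIP, is listed there under a locus name and was matched by its RefSeq gene ID.

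As background, hedgehog ligands are secreted proteins that bind PTCH1 on neighbouring cells. Unbound PTCH1 holds SMO inactive, and bound PTCH1 releases it, after which GLI proteins switch on target genes. PTCH1, GLI1 and HHIP are themselves common targets, so their transcripts are often read as signs of a cell that has received the signal, while PTCH1 and HHIP also limit it. In the mammalian ovary IHH and DHH are known as granulosa cell ligands. The pathway is known for its part in the formation of the theca, the steroid-producing outer layer of the follicle wall.

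The cells came from 6 adult Hu ewes, a prolific Chinese sheep breed, in estrus. The HLS group held 3 ewes with a litter size of at least 3, and the LLS group held 3 ewes with a litter size below 2. The labels name no treatment. From each ewe 1 whole ovary was dissociated and sequenced as 1 droplet library, and ewes are named HLS1 to HLS3 and LLS1 to LLS3 as the labels number them. Each library mixed cells of all the follicles and the stroma of that ovary, so a follicle's own granulosa and theca cells were not linked.

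After filtering, 36402 cells remained, 5141 to 7112 per ewe, with a median of 5173 to 9731 UMI (unique molecular identifiers, each a counted transcript) per cell. Among retained cells, 141 barcode sequences occurred in more than 1 library. Cells were clustered with the hedgehog genes left out, and clusters were named from other markers, so no hedgehog gene helped to define a type. The granulosa-like cells (2727) held FSHR, the FSH receptor, at 110 CPM (UMI per 1000000 UMI of the cells named) against at most 0.913 in the other 5 main types. The theca-like cells (1581, 62 to 452 per ewe) held CYP17A1, the enzyme that makes androgens, at 369 CPM against 1.25 in granulosa-like and 2.15 in stroma-like cells. They also carried granulosa and stroma transcripts, with INHA at 72.2 and DCN at 1152 CPM, and the part of these in the results below was not tested. The stroma-like (8228), perivascular-like (2638), endothelial-like (14861) and immune-like (2838) cells held PDGFRA and TCF21, RGS5, CDH5 and PTPRC, respectively. Many dividing cells stood apart as cycling clusters, having endothelial (1073 cells) or theca (683 cells) as the next-best marker score. A further cluster of 191 dividing cells scored 3.025 for cycling and 3.023 for granulosa, and it was kept among the granulosa-like cells.

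All levels below are CPM, with UMI summed over the cells of 1 ewe, and means are over ewes with at least 10 such cells, ± SD. They are counts from transcript 3′ ends, so a gene is compared between cells and not with another gene.

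IHH, a secreted ligand, was found mainly in granulosa-like cells. Granulosa-like cells gave 755 of all 859 IHH UMI, or 87.9%. This share includes 289 UMI from a cycling granulosa sub-cluster, described below. The level was 7.85 in HLS1, 54.6 in HLS2 and 21.5 in HLS3, and 26.5 in LLS1, 27.8 in LLS2 and 45.6 in LLS3. Ewe HLS1 was lowest and HLS2 highest, so the widest difference lay within the HLS group. The 30 UMI of HLS1 came from 4 cells. Theca-like cells held 6 IHH UMI in all, 5 from HLS3 and 1 from HLS2. The other 4 ewes had none, where 3 counts would correspond to 0.484 to 2.89 CPM. Mean IHH was 30.6 ± 16.9 in granulosa-like (n = 6), 0.157 ± 0.310 in theca-like, 0.349 ± 0.204 in stroma-like and 0.305 ± 0.269 in endothelial-like cells. Perivascular-like cells had 1.01 ± 0.930 and immune-like cells 0.621 ± 0.391, and these low levels overlapped one another.

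Few granulosa-like cells carried IHH. A UMI was counted in 5.74% ± 3.13 of them, at a median of 8569 UMI per cell. Immune-like cells, which should lack the gene, gave 0.312% ± 0.195 at a median of 3007 UMI. Shares of this size in the remaining types are read as background.

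**Figure D1:**
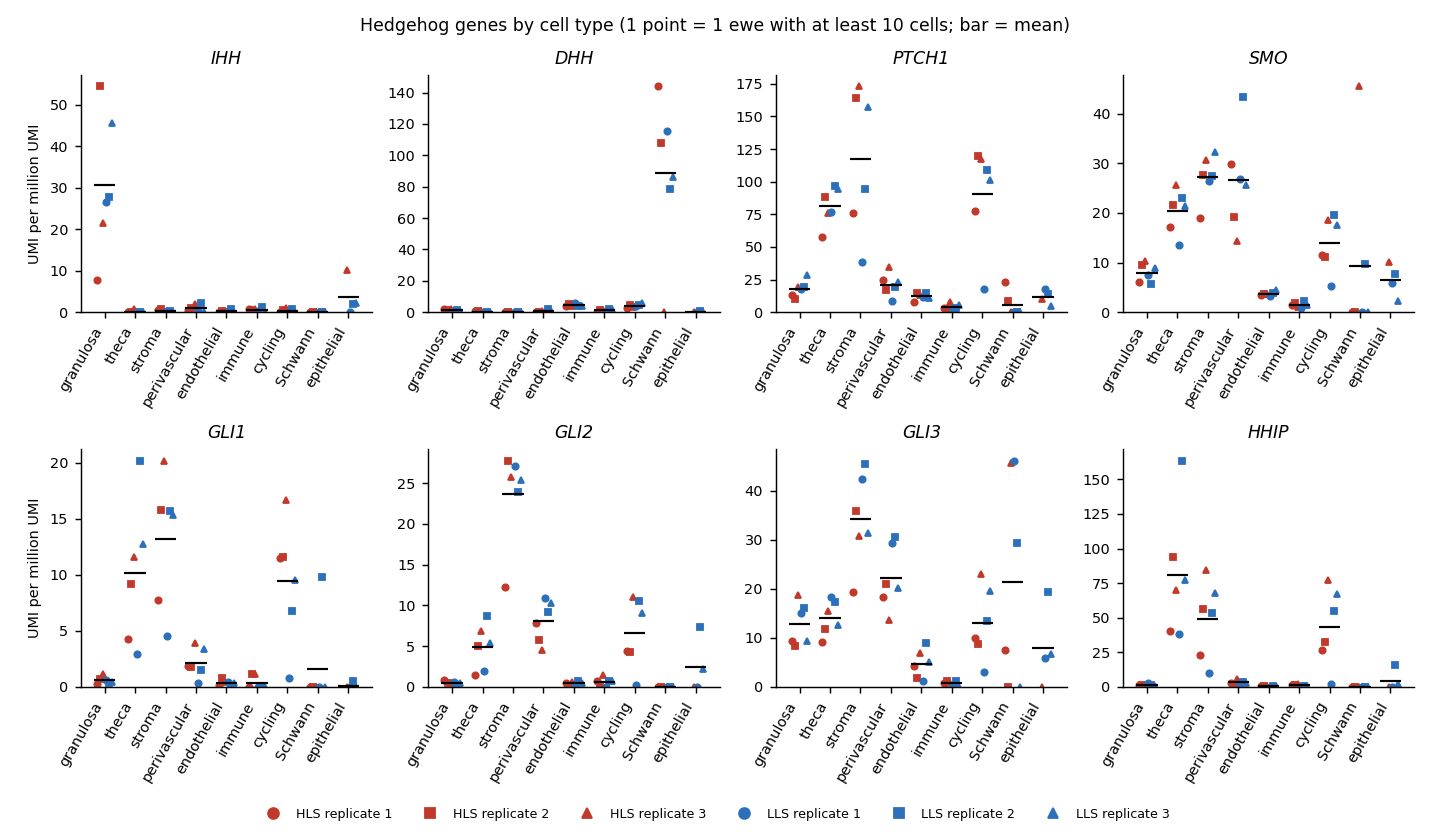
CPM (UMI per 1000000 UMI) of each of the 8 hedgehog genes (vertical axes, 1 scale per gene) by cell type, with 1 point per ewe with at least 10 cells of the type and bars at the mean. IHH stands up in granulosa-like cells, with a mean of 30.6, while PTCH1, GLI1 and HHIP stand up in stroma-like, theca-like and cycling cells, and DHH in Schwann-like cells.

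DHH, the second ligand, was sparse in granulosa-like cells. It gave 9, 5 and 15 UMI in HLS1 to HLS3 and 1, 7 and 2 in LLS1 to LLS3, a mean of 1.32 ± 0.640 CPM. Immune-like cells reached 1.11 ± 0.798, and the ranges of these types overlapped. Of the 2727 granulosa-like cells, 168 had an IHH UMI, 39 a DHH UMI and 7 both. DHH was not even among them. A sub-cluster of 338 cells led by PTPRD, described below, gave 14 of the 39 DHH UMI. With all ewes pooled this was 8.32 CPM (95% counting interval 4.55 to 13.97). A sub-cluster led by CCL25, also described below, gave 5 UMI, or 5.81 CPM (1.89 to 13.5), so the 2 intervals overlapped. Of the 16 DHH UMI of all early-type cells, the state of the PTPRD-led sub-cluster, 8 came from HLS3.

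Most DHH UMI came from endothelial-like cells. These cells gave 708 of 990 DHH UMI, or 71.5%, at 3.84, 5.15 and 4.03 CPM in HLS1 to HLS3 and 5.65, 4.01 and 4.21 in LLS1 to LLS3. The 6 values were close together and the groups overlapped. Within them a cluster with GJA5, a gap junction gene of arteries, held 7.97, 21.2 and 8.75 in HLS ewes and 20.4, 5.69 and 12.2 in LLS ewes. The highest level was in 136 Schwann-like cells, the glia of peripheral nerves, a cell type known for DHH. They held 144, 108 and 0 CPM in HLS1 to HLS3 and 115, 78.3 and 86.3 in LLS1 to LLS3. The 0 in HLS3 came from 10 cells. SHH, the other hedgehog ligand, had 0 UMI in all 6 main types, which in granulosa-like cells allows up to 0.349 to 1.73 CPM by ewe at 3 counts.

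The next question was which granulosa cells carry IHH. Granulosa-like cells were clustered again, and 697 cells in 3 sub-clusters were set aside and belong to no type above. These were 311 cells led by endothelial genes, 257 cells that stayed unnamed with theca as the best marker score, and 129 cells led by luteal genes. They held 3, 12 and 0 UMI of GLI1, 11, 16 and 1 of HHIP and 27, 37 and 60 of PTCH1, where the 2727 granulosa-like cells held 18 of GLI1 and 40 of HHIP. With them added, GLI1 in granulosa-like cells would be 1.19 ± 0.350 CPM in place of 0.582 ± 0.327, HHIP 2.92 ± 2.23 in place of 1.62 ± 0.687 and PTCH1 21.8 ± 7.24 in place of 18.0 ± 6.30. In the remaining cells the sub-clusters were named by state from other genes. The names were early-type (after the study's early granulosa cells) and cumulus-type (CC-type, the cells around the oocyte). Further names were mural-type (after the study's mural granulosa cells, those of the wall of the antral follicle) and cycling. The size of the follicle that a cell came from was not known. The study counted IHH itself among its cumulus markers, and here it was left out of the naming. States were nevertheless drawn from other genes of the same cells, so tests between them compare cells that already differ.

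Most IHH lay in 2 sub-clusters. The first was a CC-type sub-cluster of 262 cells led by AMH, the hormone of growing follicles, and FST, the activin inhibitor follistatin, and it gave 368 UMI, or 48.7% of granulosa IHH. Its level was 24.5, 77.5 and 111 in HLS1 to HLS3 and 125, 214 and 293 in LLS1 to LLS3. All LLS values lay above all HLS values, and 11.4% of all genes tested in this sub-cluster had groups that did not overlap. Ewe HLS1 had 10 of these cells and LLS1 had 13. The value of HLS1 rests on 4 UMI. The nearest values of the 2 groups, 111 in HLS3 and 125 in LLS1, rest on 56 and 17 UMI. The second was a cycling sub-cluster of 199 cells led by TOP2A, which gave 289 UMI, or 38.3%. It held 102 in HLS2, 108 in HLS3, 172 in LLS1, 54.5 in LLS2 and 279.5 in LLS3, while HLS1 had 4 such cells and no UMI. These values overlapped between the groups. The cycling sub-cluster had AMH at 310 CPM and FST at 2118, against 383 and 1832 in the AMH-led one. Its second-best marker score was CC-type, so the 2 sub-clusters share part of their profile. The AMH-led sub-cluster supplied 10 of 268, 145 of 442 and 32 of 879 granulosa-like cells in HLS1 to HLS3. In LLS1 to LLS3 it supplied 13 of 257, 44 of 514 and 18 of 367. The cycling one supplied 4, 58 and 68 cells in HLS ewes and 12, 37 and 20 in LLS ewes. The part of these shares in the spread of granulosa IHH between ewes was not tested.

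The remaining granulosa IHH was thin. An early-type sub-cluster led by PTPRD held 6.78, 12.5 and 31.9 in HLS1 to HLS3 and 12.2, 17.1 and 0 in LLS1 to LLS3. A small sub-cluster led by CCL25, left unnamed, gave 52 UMI from 269 cells, and the 25 UMI of HLS1 there all came from 1 cell. Another early-type sub-cluster, led by CCN3, gave 5 UMI from 407 cells. WT1, a marker of early granulosa cells in the study, was 27.5 CPM there and 204 in the PTPRD-led sub-cluster. WT1 was 44.7 in the AMH-led and 50.5 in the cycling sub-cluster. This marker thus goes against the name of the CCN3-led sub-cluster, though early-type was its best marker score. The mural-type sub-clusters led by GCG, PTX3, MX1 and MMP9 gave 0, 1, 5 and 0 UMI, and the 5 UMI came from a sub-cluster with 196 of 199 cells from LLS2. A further CC-type sub-cluster, led by TNFAIP6, the aromatase gene CYP19 and INHBA, had 0 IHH UMI in 144 cells, 107 of them from LLS1. The markers of that sub-cluster go partly against its name. AMH was 9.04 CPM there against 383 in the AMH-led sub-cluster, while CYP11A1, the first enzyme of steroid synthesis, was 508 against 33.1. LHCGR, the LH receptor, was 409 against 2.50, and the second-best marker score was luteal. In the mural-type sub-clusters HTRA3, a mural marker of the study, was 86.9 to 819 CPM, while CYP19 was 0 and LHCGR 1.03 to 5.05. Luteal was also the second-best score of those led by GCG, MX1 and MMP9. Where in the follicle these cells lay was not tested.

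**Figure D2:**
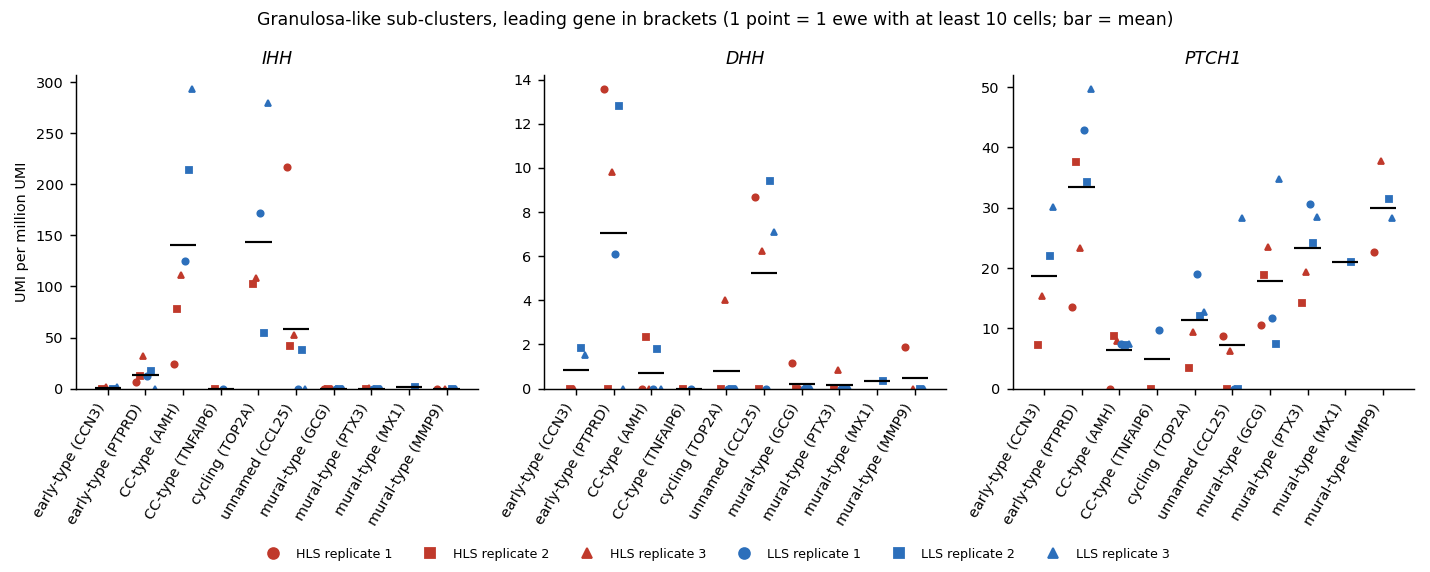
CPM of IHH, DHH and PTCH1 (vertical axes) in the granulosa sub-clusters, leading gene in brackets, with 1 point per ewe with at least 10 cells and bars at the mean. IHH is high in the AMH-led and cycling sub-clusters, up to 293, and near 0 in the mural-type ones, while PTCH1 is lower in the AMH-led sub-cluster than in the PTPRD-led one.

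By state, with the ewe as a block in edgeR's quasi-likelihood test, 3 of the 8 genes had enough counts to be tested among 8219 genes. Of all genes, 23.7% passed at an adjusted p of 0.05 for CC-type against early-type (12.6% higher, 11% lower), 36.7% for mural-type against early-type (18.7% and 18.1%) and 38.5% for CC-type against mural-type (19.1% and 19.4%). Of the 3 members, these contrasts gave 1 higher and 1 lower, 0 higher and 1 lower, and 1 higher and 2 lower. IHH was 118.6 ± 99.7 in CC-type (n = 6), 5.75 ± 3.51 in early-type and 0.260 ± 0.528 in mural-type cells. It was higher in CC-type than early-type cells by 4.32 on the log2 scale (SE 0.38, edgeR adjusted p = 2.90e-07) and lower in mural-type than early-type cells, at -3.62 (SE 0.67, edgeR adjusted p = 2.38e-04). The mural level rests on so few UMI that this second value depends on the prior count of the fit. Most CC-type cells of LLS1 came from the TNFAIP6-led sub-cluster and most of those of the other ewes from the AMH-led one. Without the TNFAIP6-led sub-cluster, a choice made after seeing the data, IHH in CC-type against early-type cells was 4.43 (SE 0.33), and the 6 calls of the 3 genes in these contrasts were kept.

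Among the CC-type, early-type and mural-type states, PTCH1 was lowest in CC-type cells. It was 8.12 ± 1.14 in CC-type, 24.9 ± 8.72 in early-type and 21.0 ± 6.0 in mural-type cells. The CC-type mean rests on 31 UMI, of which HLS1 gave 2 and LLS3 gave 1, so its small SD does not show precision. The low level was not particular to CC-type cells. PTCH1 was 7.20 ± 10.99 in the unnamed CCL25-led cells, from 7 UMI, and 11.3 ± 5.66 in cycling cells (n = 5), which were not tested. CC-type cells were lower than early-type by -1.36 on the log2 scale (SE 0.30, edgeR adjusted p = 0.00218) and lower than mural-type by -1.24 (SE 0.27, adjusted p = 0.00114). Mural-type against early-type cells gave -0.12 (edgeR adjusted p = 0.886). GLI3, which acts mainly as a repressor when no ligand is bound, was lower in CC-type than mural-type cells at -1.27 (SE 0.33, edgeR adjusted p = 0.00418). Its difference between mural-type and early-type cells was 0.71 (SE 0.28, edgeR adjusted p = 0.0502), and it passed the threshold without LLS1 at 0.80 (adjusted p = 0.0303) and without the TNFAIP6-led sub-cluster at 0.71 (adjusted p = 0.0423).

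PTCH1, the receptor, had its highest means of the 6 main types in stroma-like and theca-like cells. In stroma-like cells it was 75.9, 164 and 173 in HLS1 to HLS3 and 38.6, 94.0 and 157 in LLS1 to LLS3. In theca-like cells it was 57.5, 88.6 and 75.7 in HLS ewes and 77.1, 96.6 and 94.2 in LLS ewes. The stroma values spread widely from ewe to ewe, with LLS1 and HLS1 low, while the theca values lay close together. The means were 117 ± 55.4 in stroma-like, 81.6 ± 14.6 in theca-like, 21.2 ± 8.56 in perivascular-like, 18.0 ± 6.30 in granulosa-like, 12.2 ± 2.68 in endothelial-like and 3.90 ± 2.24 in immune-like cells (n = 6 each). Stroma and theca were not separated by their spread, nor were perivascular-like and granulosa-like cells. A PTCH1 UMI was found in 54.2% ± 4.83 of theca-like cells at a median of 15696 UMI per cell and in 25.2% ± 10.6 of stroma-like cells at 5138 UMI. Immune-like cells gave 1.75% ± 1.02.

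PTCH1 differed between the clusters of stroma. Stroma-like cells fell into 3 clusters, and the one of 2437 cells led by COL11A1, a fibrillar collagen gene, held PTCH1 at 172, 362 and 283 in HLS1 to HLS3 and 185, 192 and 246 in LLS1 to LLS3. The cluster of 4311 cells with PDGFRA and the smooth muscle gene ACTA2 held 25.5, 22.6 and 69.1 in HLS ewes and 20.2, 39.9 and 37.7 in LLS ewes. The cluster of 1480 cells led by SERPINF1 and DPT, with PI16, held 12.4, 29.4 and 16.8 in HLS ewes and 6.03, 17.4 and 29.3 in LLS ewes. In each of the 6 ewes the COL11A1-led cluster was highest of the 3. It supplied 335 of 1742, 406 of 1483 and 610 of 1616 stroma-like cells in HLS1 to HLS3 and 88 of 845, 403 of 1357 and 595 of 1185 in LLS1 to LLS3. The share was lowest in LLS1 and highest in LLS3. Both the share and stroma PTCH1 were lowest in LLS1 and next lowest in HLS1, while the order of the other ewes differed. The part of this share in the spread of stroma PTCH1 was not tested. A cycling cluster of 683 cells, whose next-best marker score was for theca, held PTCH1 at 132, 340.4 and 162 in HLS ewes and 215, 212 and 176 in LLS ewes, above the theca-like cells of the same ewe in all 6.

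**Figure D3:**
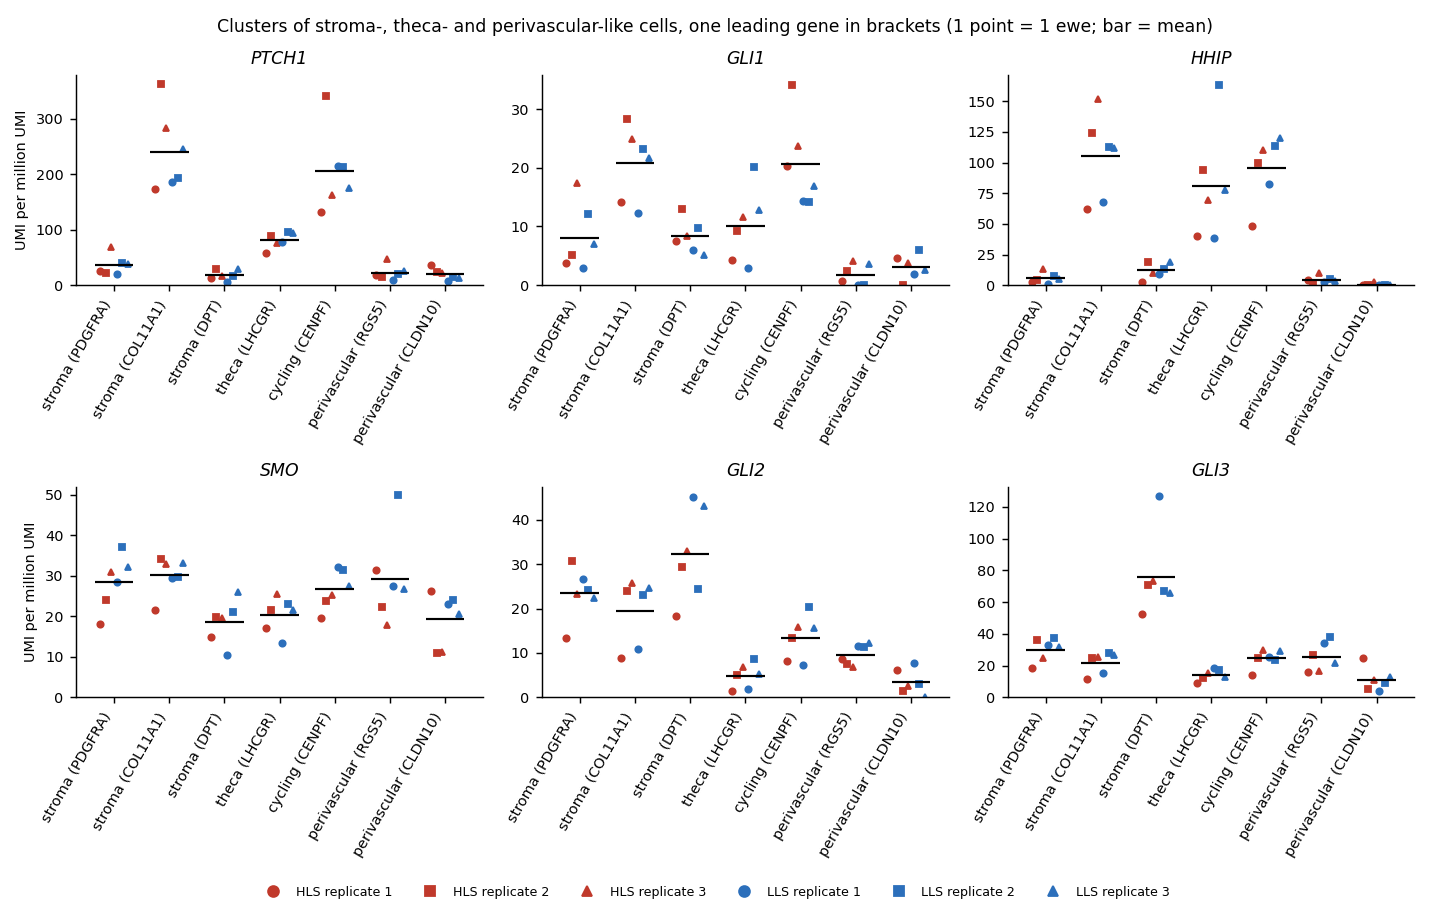
CPM of PTCH1, GLI1, HHIP, SMO, GLI2 and GLI3 (vertical axes) in the clusters of stroma-like, theca-like and perivascular-like cells and in the cycling cluster nearest to theca, 1 leading gene in brackets, with 1 point per ewe and bars at the mean. PTCH1, GLI1 and HHIP are high in the COL11A1-led and cycling clusters, GLI3 is high in the DPT cluster, and SMO varies least.

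SMO, which passes the signal into the cell, was spread more evenly. Stroma-like cells held 19.0, 27.6 and 30.6 in HLS1 to HLS3 and 26.3, 27.5 and 32.2 in LLS1 to LLS3. Theca-like cells held 17.2, 21.6 and 25.5 in HLS ewes and 13.5, 23.1 and 21.5 in LLS ewes. The mean was 27.2 ± 4.57 in stroma-like, 26.5 ± 9.995 in perivascular-like, 20.4 ± 4.34 in theca-like, 7.996 ± 1.94 in granulosa-like, 3.70 ± 0.418 in endothelial-like and 1.47 ± 0.506 in immune-like cells. The first 3 types overlapped, and granulosa-like cells lay below each of these in every ewe.

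Among the main types GLI1, a target and activator of the pathway, had its highest means in stroma-like and theca-like cells, as PTCH1 did. Stroma-like cells gave 739 of 1380 GLI1 UMI, or 53.6%. They held 7.79, 15.8 and 20.2 in HLS1 to HLS3 and 4.52, 15.7 and 15.3 in LLS1 to LLS3. Theca-like cells held 4.29, 9.21 and 11.6 in HLS ewes and 2.89, 20.2 and 12.7 in LLS ewes, the lowest from 3 UMI in the 62 cells of LLS1. In both types HLS1 and LLS1 were the low ewes. Granulosa-like cells held 18 GLI1 UMI in all, a mean of 0.582 ± 0.327, near the 0.385 ± 0.596 of immune-like cells. Within stroma the COL11A1-led cluster held 14.2, 28.4 and 24.8 in HLS ewes and 12.3, 23.1 and 21.6 in LLS ewes. The PDGFRA cluster held 3.73, 5.09 and 17.4 in HLS ewes and 3.00, 12.1 and 7.06 in LLS ewes, lower in each ewe.

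GLI2, the main activator that SMO releases, was a stroma transcript more than a theca one. Stroma-like cells gave 71.1% of its 1718 UMI and held 12.3, 27.8 and 25.7 in HLS1 to HLS3 and 27.1, 23.8 and 25.3 in LLS1 to LLS3. HLS1 stood apart from the other 5 ewes. Theca-like cells held 1.43, 5.02 and 6.81 in HLS ewes and 1.93, 8.65 and 5.32 in LLS ewes, below the stroma of the same ewe in all 6. Perivascular-like cells had a mean of 8.07 ± 2.50 and granulosa-like cells 0.426 ± 0.251, from 9 UMI.

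GLI3 was present in granulosa-like cells as well as in stroma-like, perivascular-like and theca-like cells. Its mean was 34.2 ± 9.29 in stroma-like, 22.1 ± 6.50 in perivascular-like, 14.1 ± 3.496 in theca-like, 12.8 ± 4.31 in granulosa-like and 4.68 ± 2.96 in endothelial-like cells. Theca and granulosa overlapped. Inside stroma its order of clusters differed from that of PTCH1. The DPT cluster held 52.2, 70.9 and 72.9 in HLS1 to HLS3 and 127, 66.8 and 65.5 in LLS1 to LLS3. The COL11A1-led cluster held 11.8, 24.5 and 25.5 in HLS ewes and 15.4, 27.7 and 26.6 in LLS ewes. Every value of the first lay above every value of the second.

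HHIP, which binds hedgehog ligands and keeps them from PTCH1, was the member with the largest share in theca. Theca-like cells gave 32.3% of its 6061 UMI and stroma-like cells 45.8%. In theca-like cells it was 40.5, 93.8 and 69.8 in HLS1 to HLS3 and 38.6, 164 and 77.6 in LLS1 to LLS3. In stroma-like cells it was 23.4, 56.1 and 84.5 in HLS ewes and 10.3, 53.6 and 67.6 in LLS ewes. In 5 of 6 ewes theca was above stroma, and HLS3 was the exception. The COL11A1-led cluster held 61.9, 124 and 152 in HLS ewes and 67.9, 113 and 112 in LLS ewes, and the PDGFRA cluster 2.33, 4.58 and 13.2 in HLS ewes and 1.25, 7.84 and 4.71 in LLS ewes. The cycling cluster near theca held 48.2, 99.4 and 110.3 in HLS ewes and 82.4, 113 and 119.8 in LLS ewes. Granulosa-like cells had 1.62 ± 0.687, perivascular-like 3.16 ± 1.54 and endothelial-like 0.467 ± 0.256.

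The types were then compared over the 6 ewes, with the ewe as a block, for 14406 genes in edgeR's quasi-likelihood test. All 8 members were tested in each of the 5 contrasts. These contrasts share types, and they compare cells grouped by other genes, so many genes differ in each of them. The number of members that passed is given beside the percentage of all genes tested.

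Granulosa against theca, the pair of cells the pathway is thought to link, gave 1 member higher and 5 lower, where 24.5% of all genes were higher and 22.7% lower, or 47.2% in all. IHH was higher in granulosa-like cells by 6.82 on the log2 scale (SE 0.53, edgeR adjusted p = 4.51e-12), a value that depends on the prior count since theca held 6 UMI. HHIP was lower by -5.97 (SE 0.34, edgeR adjusted p = 4.09e-15), GLI1 by -4.15 (SE 0.41, adjusted p = 6.35e-10), GLI2 by -3.90 (SE 0.51), PTCH1 by -2.41 (SE 0.24) and SMO by -1.54 (SE 0.19). So IHH lay on one side and 5 of the genes that receive or limit the signal on the other. With the 697 cells set aside from the granulosa clusters added back, a choice made after seeing the data, GLI1 gave -3.27 (SE 0.37) and HHIP -5.19 (SE 0.37), and the calls stayed the same except that DHH passed, at 1.32 (SE 0.52, edgeR adjusted p = 0.0353). DHH had 1.23 (SE 0.53, edgeR adjusted p = 0.0586) and passed the threshold without LLS1, at 1.24 (adjusted p = 0.0427). GLI3 had -0.29 (SE 0.30, edgeR adjusted p = 0.445).

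Granulosa against stroma gave 2 members higher and 6 lower, with 24.8% and 25.9% of all genes, or 50.7% in all. IHH was higher by 6.18 (SE 0.43) and DHH by 2.44 (SE 0.52, edgeR adjusted p = 1.94e-04). GLI2 was lower by -6.08 (SE 0.44), HHIP by -5.08 (SE 0.33), GLI1 by -4.48 (SE 0.39), PTCH1 by -2.74 (SE 0.24), SMO by -1.81 (SE 0.18) and GLI3 by -1.48 (SE 0.28, edgeR adjusted p = 4.14e-05). All 8 members thus differed between granulosa-like and stroma-like cells. For DHH this rests on 39 UMI in granulosa-like and 13 in stroma-like cells. Its granulosa mean, 1.32 ± 0.640, lay near the 1.11 ± 0.798 of immune-like cells.

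Theca against stroma compared the main types with the highest PTCH1 means. Here 1 member was higher and 2 lower, with 21.2% and 26.8% of all genes, or 48% in all. HHIP was higher in theca by 0.89 (SE 0.22, edgeR adjusted p = 0.00148), and this call was lost with no ewe block (0.81, adjusted p = 0.0535) and with values centred per ewe before clustering (0.54, adjusted p = 0.0865). GLI2 was lower by -2.18 (SE 0.30, edgeR adjusted p = 3.90e-07) and GLI3 by -1.19 (SE 0.28, adjusted p = 7.12e-04). PTCH1, SMO and GLI1 gave -0.33 (SE 0.22), -0.27 (SE 0.17) and -0.33 (SE 0.27), with edgeR adjusted p of 0.215, 0.19 and 0.336. Without LLS1, PTCH1 passed the threshold at -0.54 (adjusted p = 0.0225). These values do not show that the types were alike in the 3 genes. The stroma-like sums also join clusters that differ in PTCH1, GLI1 and HHIP. In the COL11A1-led cluster, whose second-best marker score was theca, PTCH1 and GLI1 lay above theca-like cells in every ewe. HHIP did so in every ewe but LLS2. That cluster alone was not tested against theca.

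Stroma against perivascular gave 4 members higher and 0 lower, with 19.1% and 18.3% of all genes, or 37.4% in all. The 4 were HHIP at 3.95 (SE 0.32), GLI1 at 2.73 (SE 0.36), PTCH1 at 2.53 (SE 0.24) and GLI2 at 1.58 (SE 0.29). SMO gave 0.13 (edgeR adjusted p = 0.615), and GLI3 gave 0.67 (SE 0.27, adjusted p = 0.0526) and passed without LLS1 at 0.70 (adjusted p = 0.0210). Stroma against endothelial gave 6 higher and 1 lower, with 29.7% and 32.5% of all genes, or 62.3% in all. The lower one was DHH, at -4.30 (SE 0.42), and the 6 ran from 2.78 for SMO to 6.58 for HHIP.

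The rest of the pathway was read from a list of 25 further genes, 23 of which were tested between types. In granulosa against theca 7 were higher and 7 lower, with a median of 0.14 on the log2 scale against 0.02 over all genes. In granulosa against stroma 1 was higher and 15 lower (median -0.90 against -0.02), and in theca against stroma 2 were higher and 13 lower (median -0.93 against -0.07). In stroma against perivascular 7 were higher and 5 lower (median 0.43 against 0.02), and in stroma against endothelial 17 were higher and 4 lower (median 1.17 against -0.02). In each contrast that included stroma-like cells, most listed genes that passed were higher in stroma. Against perivascular-like cells the split was narrow, at 7 and 5 of 23, where 19.1% of all genes were higher and 18.3% lower. For the other contrasts the shares of all genes are given above. Between granulosa states 10 were tested. For CC-type against early-type 0 were higher and 4 lower (median -0.50 against -0.0095), for mural-type against early-type 2 and 3 (median -0.12 against 0.0048), and for CC-type against mural-type 2 and 4 (median -0.50 against 0.019).

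Among genes that act on the ligand, HHAT, the enzyme that attaches palmitate to it, was higher in granulosa than theca by 1.41 (SE 0.33, edgeR adjusted p = 7.11e-04). DISP1, which releases the ligand from the cell, was higher by 0.75 (SE 0.27, edgeR adjusted p = 0.0221). For HHAT and DISP1 these differences are against theca only. They do not show that either gene was particular to granulosa, or highest there among the main types. Against stroma, only 1 of the 23 listed genes tested was higher in granulosa. Of the SCUBE genes, whose secreted products help ligand release, SCUBE3 was 14.9 ± 7.84 in granulosa-like and 0.776 ± 0.420 in theca-like cells, a difference of 4.31 (SE 0.50). It was lower in mural-type than early-type cells at -3.27 (SE 0.37) and higher in CC-type than mural-type cells at 3.21 (SE 0.39), while CC-type against early-type cells gave -0.07 (SE 0.33, edgeR adjusted p = 0.926). SCUBE2 had the reverse distribution between granulosa and theca, at -4.05 (SE 0.51), and its means were 14.9 ± 5.12 in stroma-like and 17.3 ± 8.59 in perivascular-like cells.

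The co-receptors CDON, BOC and GAS1, which help PTCH1 bind ligand, had their highest means in stroma among the granulosa, theca, stroma, perivascular and endothelial types. CDON was 27.1 ± 13.1 in stroma-like, 8.72 ± 2.40 in theca-like and 2.23 ± 0.726 in granulosa-like cells. BOC was 12.2 ± 5.75 in stroma-like and 1.64 ± 1.55 in theca-like cells, a difference of -2.97 for theca against stroma (SE 0.46). GAS1 was 338 ± 69.4 in stroma-like, 163 ± 60.5 in granulosa-like and 115 ± 17.1 in theca-like cells, and granulosa and theca gave a difference of 0.27 that did not pass (edgeR adjusted p = 0.364). All 3 were lower in theca than stroma.

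Downstream genes did not share 1 pattern. SUFU, the GLI inhibitor, was lower in theca than stroma at -0.76 (SE 0.15, edgeR adjusted p = 1.01e-04), and EVC, a ciliary partner of SMO, at -2.41 (SE 0.20). EVC was higher in granulosa than theca at 1.32 (SE 0.21). MYCN, a growth regulator and common GLI target, was 15.4 ± 5.89 in theca-like, 8.93 ± 4.18 in stroma-like and 0.634 ± 0.692 in granulosa-like cells. It was higher in theca than stroma by 0.95 (SE 0.26, edgeR adjusted p = 0.00320). Other listed targets had lower means in theca than stroma. CCND1 was 2.48 ± 0.788 in theca-like, 18.8 ± 9.50 in stroma-like and 252 ± 89.3 in perivascular-like cells. BCL2 was 7.48 ± 1.97 in theca-like, 28.3 ± 2.43 in stroma-like and 25.5 ± 9.97 in granulosa-like cells. FOXF1, a target in gut and lung mesenchyme, was 38.4 ± 6.59 in endothelial-like and 2.19 ± 1.30 in stroma-like cells.

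PTCH1, GLI1 and HHIP were next compared within single cells. Cells were thinned to 3000 UMI each, since deeper cells hold more of every gene, and the share of cells with a UMI of the second gene was taken in cells with and without the first. This left 6244 stroma-like and 1534 theca-like cells, and ewes with fewer than 10 cells positive for the first gene were not used. The test was an exact two-sided sign-flip test over ewes, whose smallest p is 0.03125 with 6 ewes, 0.0625 with 5 and 0.125 with 4. The 6 relations were adjusted together. With the ewes that could be used, no thinned relation could reach an adjusted p under 0.05.

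In stroma-like cells with PTCH1, HHIP was found in 15.8%, 26.7% and 31.2% of cells in HLS1 to HLS3 and in 17.02%, 25.3% and 23.0% in LLS1 to LLS3. In stroma-like cells without PTCH1 it was found in 2.24%, 5.09% and 7.49% in HLS ewes and 1.70%, 6.36% and 8.40% in LLS ewes. The share was higher with PTCH1 in 6 of 6 ewes, by 17.9 ± 4.11 percentage points (exact p = 0.03125, adjusted p = 0.125). PTCH1 was found in 20.5 ± 8.40 percentage points more stroma-like cells with GLI1 than without (5 of 5 ewes, exact p = 0.0625, adjusted p = 0.125), and HHIP in 9.38 ± 4.67 more (5 of 5 ewes, the same p). The clusters of stroma differ in all 3 genes, and their part in these differences was not tested.

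In theca-like cells, PTCH1 was found in 20.4 ± 7.66 percentage points more cells with GLI1 (4 of 4 ewes, exact p = 0.125, adjusted p = 0.188). HHIP gave 11.1 ± 14.99 with PTCH1 (4 of 5 ewes, exact p = 0.25, adjusted p = 0.3) and 5.42 ± 16.9 with GLI1 (3 of 4 ewes). The theca values for HHIP did not exceed the spread between ewes. Without thinning the stroma differences were 39.9, 28.1 and 27.8 percentage points for PTCH1 with GLI1, HHIP with GLI1 and HHIP with PTCH1. That for HHIP with PTCH1 in theca was 23.0, and these 4 passed (exact permutation over signs, adjusted p = 0.0469). Unthinned cells differ in depth, and deeper cells hold more of both genes, so these 4 values cannot be told apart from depth.

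**Figure D4:**
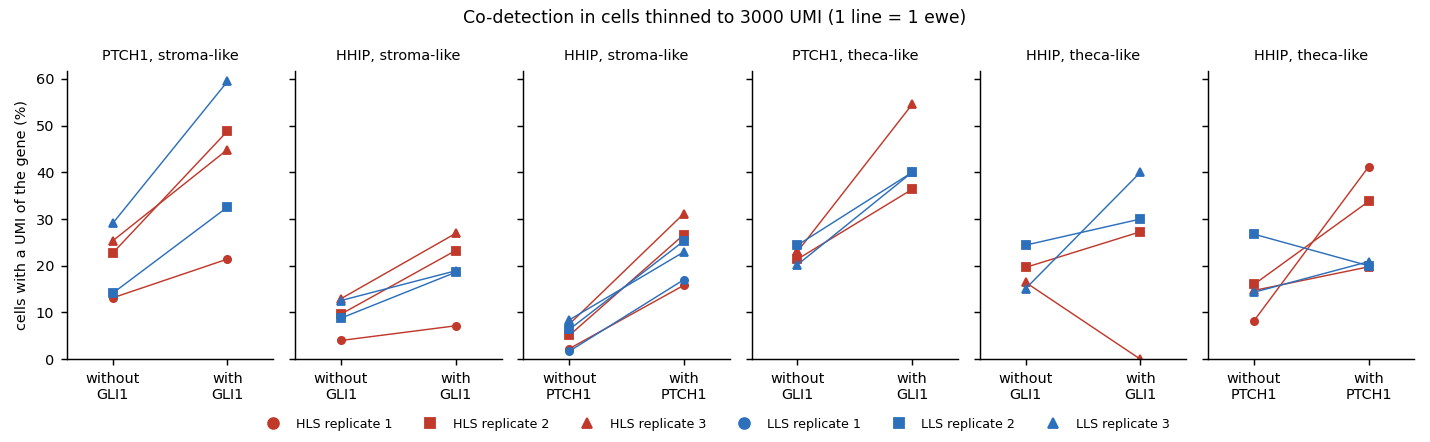
Percentage of cells, thinned to 3000 UMI, with a UMI of the gene named above each panel (vertical axis), in cells without and with a UMI of the gene named below it, with 1 line per ewe. All lines rise in the 3 stroma-like panels and for PTCH1 with GLI1 in theca-like cells, and lines cross in both theca-like HHIP panels.

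Ligand and target levels were then set side by side over ewes. Granulosa IHH plus DHH was related to PTCH1, GLI1 and HHIP in stroma-like and theca-like cells, 6 relations over the same 6 ewes, whose 2 groups were pooled. The closest was PTCH1 in theca-like cells, with Pearson's r of 0.75 (exact permutation p = 0.0889, adjusted p = 0.533) and Spearman's rho of 0.77 (exact permutation p = 0.103, adjusted p = 0.525). Without HLS2 and LLS3, the 2 ewes farthest from the median ligand level, r was 0.90. For PTCH1 in stroma-like cells r was 0.56 and rho 0.31 (exact permutation p = 0.264 and 0.564, adjusted p = 0.626 and 0.658), and r was 0.02 without the same 2 ewes. GLI1 gave r of 0.38 in stroma (rho 0.26) and 0.26 in theca (rho 0.37), and HHIP 0.38 (rho 0.26) and 0.31 (rho 0.66), with exact permutation p of 0.175 or more. None passed. With IHH alone, r for PTCH1 in theca-like cells was 0.76. It was 0.64 without HLS2 and HLS1, the 2 ewes then left out by the same rule, so the rise to 0.90 depends on the ewes left out. The granulosa level also joins sub-clusters whose shares differ by ewe, and the part of this in these relations was not tested. Relations within a group of 3 ewes were not computed.

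Between HLS and LLS ewes, no hedgehog gene passed the test. Of the 8 members, 4 had enough counts in granulosa-like, 6 in theca-like, 6 in stroma-like, 4 in perivascular-like, 7 in endothelial-like and 0 in immune-like cells. In edgeR's quasi-likelihood test 0 of all genes passed in any of the 6 types (0% called of 10210 to 15118 genes tested). At an unadjusted p under 0.05, 196 to 660 genes per type were counted, and 0 members were among them. DESeq2 called 1 gene in granulosa-like, 2 in stroma-like, 2 in perivascular-like, 6 in endothelial-like, 27 in immune-like and 0 in theca-like cells.

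The values show how wide the ewes lay. IHH in granulosa-like cells gave -0.11 on the log2 scale for HLS against LLS (SE 0.56, edgeR adjusted p = 0.999). That sign turned without HLS1, the low ewe, to 0.30. The granulosa sums join sub-clusters that differ in IHH and in their share by ewe, and the part of this was not tested. PTCH1 in stroma-like cells gave 0.57 (SE 0.44, edgeR adjusted p = 0.827) and in theca-like cells -0.12 (SE 0.19, adjusted p = 0.985). GLI1 gave 0.34 (SE 0.42) in stroma and -0.41 (SE 0.46) in theca, and HHIP 0.36 (SE 0.58) and -0.30 (SE 0.41). GLI3 in stroma-like cells gave -0.40 (SE 0.20, edgeR adjusted p = 0.827). Within the COL11A1-led cluster alone, chosen after the values had been seen, PTCH1 gave 0.48 (SE 0.22, edgeR adjusted p = 0.945), with 0 of 11932 genes called.

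**Figure D5:**
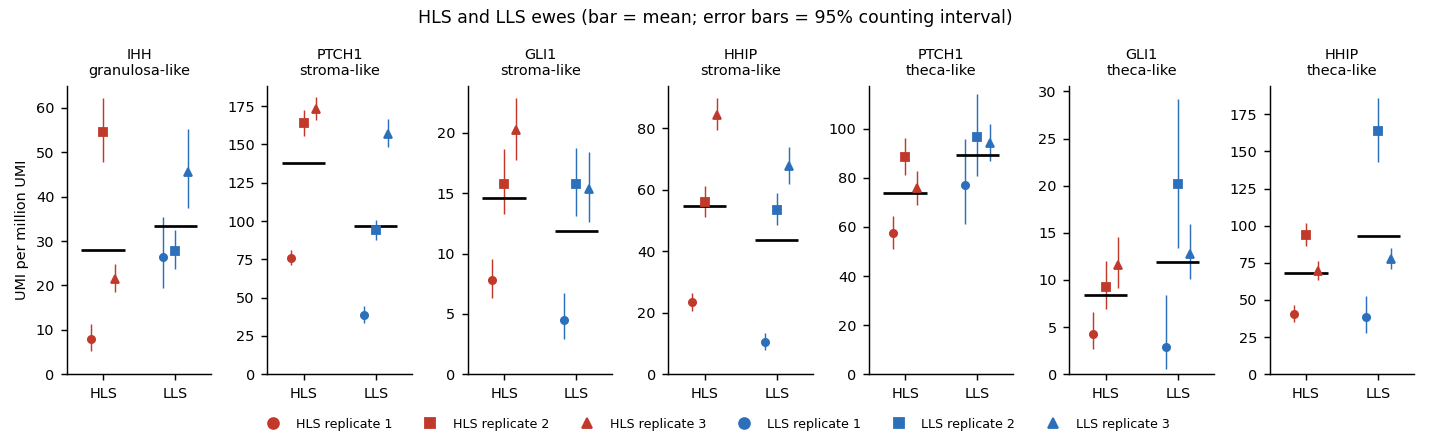
CPM (vertical axes) of IHH in granulosa-like cells and of PTCH1, GLI1 and HHIP in stroma-like and theca-like cells for the 3 HLS and 3 LLS ewes, with error bars as 95% counting intervals and bars at the group mean. The groups overlap in every panel, and IHH of HLS1 and HLS2, both in the HLS group, lies at 7.85 and 54.6.

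Of 27 pairs of a member and a type tested, 2 had groups that did not overlap on the scale of the fit. SMO in theca-like cells was higher in the HLS ewes after TMM scaling, where 9.10% of all genes did not overlap, but its CPM, given above, overlapped between the groups. GLI2 in perivascular-like cells was lower in the HLS ewes, where 8.30% did not. The GLI2 levels there were 7.82, 5.80 and 4.54 in HLS1 to HLS3 and 10.9, 9.13 and 10.3 in LLS1 to LLS3. In the other types 5.08% to 11.1% of genes did not overlap, so 2 of 27 was no larger a share. Whether a contrast between types differed by group was tested for 19 pairs of a member and a contrast, and 0 passed (smallest unadjusted p = 0.0255 in edgeR, for PTCH1 in granulosa against stroma). Among the 25 further pathway genes 8 to 23 were tested per type and 0 passed.

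By the correlation of log levels over the 36 sums of 6 ewes and 6 types, given as a description since the sums share ewes and libraries, the genes most like IHH among 16567 were LOC121818674 (r = 0.979), LARGE2 (0.964), AMH (0.951), SCN10A (0.950) and FSHR (0.947). Those most like PTCH1 were RGS22 (0.929), PJA1 (0.913), MBOAT2 (0.901), DPYSL3 (0.897) and CEP126 (0.891). Those most like GLI1 were ENTPD2 (0.951), COL11A1 (0.924), ANGPTL5 (0.915), ADCY2 (0.915) and CPED1 (0.908).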

How the data were processed

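Ovaries of 6 Hu ewes, 3 HLS and 3 LLS, were measured as 1 single-cell library (Chromium 3′ v3) per ewe, grouped by the deposited labels. The authors mapped reads with STAR within Cell Ranger 5.0.0 and deposited raw UMI counts per gene and barcode, used here unchanged. The genome build is not given in the sources used here.

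Of 52290 barcodes, those with at least 200 genes, 1000 UMI and a log10 gene to log10 UMI ratio of 0.7, at most 10% mitochondrial and 5% haemoglobin UMI were kept (38464), and 2062 called doublets were removed with a caller based on simulated doublets, in place of DoubletFinder. Cells (2000 variable genes without the hedgehog genes, 30 components, 20 neighbours, Leiden resolution 0.8) were clustered with scanpy 1.11.5 and leidenalg 0.10.2 in Python 3.11.15. Clusters were named from marker lists, and those below a marker score of 0.5 stayed unnamed. This scoring rule was set after clusters had been seen, so names may differ from the study's.

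UMI were summed per ewe and type (at least 10 cells). Sums were filtered with filterByExpr, scaled by TMM and tested with edgeR 4.0.16 in R 4.3.3 (quasi-likelihood, Benjamini-Hochberg adjusted p, threshold 0.05), with the ewe as a block between types and states. DESeq2 1.42.0 was an alternative. The scripts were tested on simulated data. SE is the log2 fold change divided by the t value that gives the test's p. For HLS against LLS, p-values set the difference against the spread between ewes. Between types and states they rest on the spread that remained with each ewe's own level removed. All main types were in 1 fit, and so were the states, so this spread is shared over the fit. It is not that of the single difference tested. The 95% counting intervals and limits at 3 counts cover counting error only. Alternatives were other scaling, filters, blocks, cell limits, resolutions, centring per ewe and leaving out each ewe. The members, gene lists and tests were chosen with earlier results of these data known. The genes named are the 8 members, a list of 25 further pathway genes, the 5 genes most like IHH, PTCH1 and GLI1, and the leading genes of clusters. Of the 25 further genes, 1 is counted but not reported here by name.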

Additional observations from a re-analysis of the deposited data

Results flagged for a closer look

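Within types, the level of each member was checked for a ewe far from the other 5. Of 32 levels checked, 1 stood out. GLI2 in stroma-like cells was 12.3 CPM in HLS1 (145 UMI), the nearest other ewe had 23.8, and the highest had 27.8. The gap of HLS1 to its neighbour was 0.748 of the whole range, above Dixon's 95% critical value for 6 samples. Chance alone passes this limit in about 1 in 20 levels. HLS1 was also lowest of the 6 ewes for GLI3 and SMO in stroma-like cells, at 19.4 and 19.0 CPM, and a cause was not tested.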

How the results depend on the processing

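The 34 member differences that passed were recomputed in 538 alternative values. Of these, 0 changed direction and 2 lost the call, both for HHIP in theca against stroma (no ewe block 0.81, centred per ewe 0.54). Over all 88 results, 1199 of 1259 alternative values kept their direction and side of the threshold, or moved by less than the limits set.

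For HLS against LLS, where edgeR called 0 genes in each type, no filter on low counts gave 178 genes in immune-like cells, 56 in theca-like cells and 3 in perivascular-like cells. DESeq2 called 27 genes in immune-like cells, 6 in endothelial-like cells, 2 each in stroma-like cells and perivascular-like cells, and 1 in granulosa-like cells. With each ewe left out in turn, 0 to 1 genes were called in theca-like and stroma-like cells and 0 to 2 in endothelial-like and immune-like cells. Values centred per ewe turned PTCH1, GLI2 and HHIP in theca-like cells to 0.062, 0.24 and 0.26. SMO in stroma-like cells was 0.045 in the COL11A1-led cluster alone, an alternative chosen after seeing the data. Leaving out each ewe moved IHH in granulosa-like cells from -0.98 to 0.30, GLI2 and HHIP in theca-like cells from -0.52 to 0.19 and from -0.63 to 0.32, and SMO, GLI1, GLI2 and HHIP in stroma-like cells from -0.17 to 0.0082, from -0.021 to 0.58, from -0.33 to 0.053 and from -0.10 to 0.81. None of these values passed.

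Between types, SMO in stroma against perivascular ran from -0.020 to 0.28 over left-out ewes. CC-type against early-type called 1944 genes, 1273 with no ewe block and 1264 to 2237 with a ewe left out, 1264 being without HLS3. Without thinning the co-detection differences were 39.9, 28.1, 27.8 and 23.0 percentage points, and HHIP with GLI1 in theca ran from -1.07 to 12.7 over left-out ewes, the lowest without LLS3. At 2000 UMI the relations of GLI1 in theca could not be computed, as too few ewes had 10 cells with GLI1. With DHH alone the correlations with PTCH1, GLI1 and HHIP in theca-like cells were -0.69, -0.11 and -0.16. The cause of these changes was not tested.

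The replicate numbers are shared by the groups, but nothing in the labels pairs ewes. Deviations of same-numbered ewes correlated from -0.35 to 0.27, with 4 of 18 above 0.1. A replicate block gave 1 gene in immune-like cells and 0 in the other 5 types.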

Other observations

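In the AMH-led CC-type sub-cluster, the main site of IHH, which was chosen after its values had been seen, IHH was lower in all 3 HLS than in all 3 LLS ewes, by -1.33 on the log2 scale (SE 0.35, edgeR unadjusted p = 0.00170, adjusted p = 0.691 over 4539 genes). In that sub-cluster 0 genes passed after adjustment, 205 had an unadjusted p under 0.05 and the groups did not overlap in 11.4% of genes. The 6 ewes had 10, 145 and 32 of these cells in HLS1 to HLS3 and 13, 44 and 18 in LLS1 to LLS3. These cells held 4, 132 and 56 IHH UMI in HLS ewes and 17, 119 and 40 in LLS ewes.

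A cluster of 30 epithelial-like cells with PRG4, all from LLS2, held GLI3 at 130.2 CPM (33 UMI) and HHIP at 122 (31 UMI), with 2 UMI of PTCH1 and 0 of GLI1. As it came from a single ewe, it has no replicate.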
